A study of Mus musculus with 101 samples.

Results

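The prostaglandin synthesis genes are 10 rows of the deposited expression files, taken by symbol: Ptgs1, Ptgs2, Ptges, Ptges3, Ptgds, Ptgis, Hpgds, Alox5ap, Pla2g5 and Pla2g4a. They stand among 21330 genes with a value above 0 in at least 1 library, and all 10 were found. They were chosen by name, with no threshold on their values, but with earlier results of these data known. Counts and medians of members beside those of all genes are therefore description and no independent evidence.

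The libraries come from mice whose strain is labelled C57, given LPS (lipopolysaccharide, an outer membrane molecule of bacteria that sets off inflammation) into the peritoneum at 5 mg/kg, or phosphate-buffered saline (PBS) in the same way. Tissue of the areas labelled PFC and VCX was taken after 1, 2 or 14 days. RNA bound to ribosomes of astrocytes was pulled down through a hemagglutinin tag (the IP), and RNA of the cleared lysate was kept as the input. All mice of the IP groups therefore carry the tag, but the promoter or Cre line that restricts it to astrocytes, the age of the mice and any further allele are not given in the sources used here. The 101 libraries form 26 groups. Each LPS or PBS group of a day, area and fraction holds 4 libraries, except LPS IP of PFC at day 2 and LPS input of VCX at day 2, with 3 each. A further set of whole tissue from PFC at day 1 holds 3 LPS and 4 PBS libraries, all female, while the other groups mix the sexes. The labels do not say which libraries come from separate animals, so every p-value here measures the spread between libraries. By the labels, IP and input of 1 day share a sequencing project, each day has a different project, and whole tissue has yet another, so levels are not set against each other across days or between whole tissue and the rest.

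Prostaglandins are short-lived lipid messengers made from arachidonic acid. A phospholipase A2 frees the fatty acid from membranes, a cyclooxygenase turns it into prostaglandin H2, and a terminal synthase makes from that the E, D or I form. In the brain, prostaglandin E2 is best known for fever and sickness behaviour after peripheral inflammation, and prostaglandin D2 for promoting sleep. Alox5ap sits on the neighbouring branch: its product, 5-lipoxygenase activating protein, presents arachidonic acid to 5-lipoxygenase for leukotriene synthesis.

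Library depth ran from 4.21 to 72.94 M reads with a median of 40.8 M, and 3 libraries of the day 14 input held fewer than 10 M. Values are FPKM (reads per kilobase of gene and per M reads), which allow levels to be compared between genes of a library. Deposited FPKM of IP and input are not on the same scale, because the scaling factors of the libraries differ. At day 1 in PFC the factor was 0.7695 in PBS IP replicate 1 and 1.2197 in PBS input replicate 1. Scaled FPKM are FPKM divided by this factor. Changes are differences of log2 scaled FPKM with their standard error, and a gene is called at a Benjamini-Hochberg adjusted p under 0.05 in limma over all genes tested. In the day 1 IP of PFC the 8 astrocyte markers together reached 9650 to 11600 scaled FPKM in the LPS libraries and 9690 to 10600 in the PBS libraries. The same markers reached 375 to 393 in the LPS input and 401 to 498 in the PBS input. In the PBS libraries at day 1 all 8 astrocyte markers were higher in the IP than in the input, all 8 neuron markers and all 11 microglia markers were lower, and 9 of 10 meningeal fibroblast markers were higher.

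Of the 10 genes, 5 were higher in the IP than in the input of PBS mice at day 1, and 4 were lower. Of 15048 genes tested, 88.4% were called in 1 direction or the other at day 1 (87.5% and 87.4% at days 2 and 14). Microsomal prostaglandin E synthase 1, the inducible enzyme of prostaglandin E2, is made by Ptges and was the most enriched of the 10 genes on the log2 scale. In PFC its level was 13, 13.9, 13.8 and 15.2 FPKM in the PBS IP libraries, against 1.61, 1.65, 1.49 and 1.3 FPKM in the PBS input libraries. Every IP library lay far above every input library. Here and below, changes between IP and input in PBS are means over PFC and VCX. For Ptges the change was 3.45 ± 0.112 at day 1, 3.28 ± 0.0574 at day 2 and 3.60 ± 0.0823 at day 14. The limma adjusted p were 1.7e-22, 2.2e-26 and 1.01e-24. Ptgds, which encodes the lipocalin-type prostaglandin D synthase, was the most abundant of the 10 genes in every group. It stood at 3017, 1625, 1663 and 3016 FPKM in the PBS IP of PFC at day 1, against 586, 667, 435 and 462 FPKM in the PBS input. The 2 sets did not overlap, and the change over both areas was 2.66 ± 0.169, 1.44 ± 0.254 and 2.40 ± 0.213 at days 1, 2 and 14. The 10 meningeal fibroblast markers summed to 88.3 to 148 scaled FPKM in the PBS IP of PFC at day 1. In the PBS input they summed to 26.5 to 36.6. Their part in the Ptgds enrichment was not tested. Ptgs1, the gene of the constitutive cyclooxygenase COX-1, was higher in the IP by 1.39 ± 0.106, 1.52 ± 0.0706 and 1.62 ± 0.0982 at the 3 days. Pla2g5, which encodes the secreted group V phospholipase A2, was higher by 1.01 ± 0.124, 0.58 ± 0.121 and 1.52 ± 0.168, mostly through PFC. Its mean scaled FPKM in the PBS IP of PFC was 4.54, 2.77 and 5.65, against 1.3, 1.17 and 1.15 in the input. In VCX it was 1.13, 0.936 and 1.45, against 0.891, 0.909 and 0.749, so the day 2 difference there was small. The fractions were not tested within an area.

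Ptgs2, the gene of the inducible cyclooxygenase COX-2, showed the opposite. It stood at 0.339, 0.532, 0.413 and 0.352 FPKM in the PBS IP of PFC at day 1, against 6.81, 5.94, 7.95 and 7.73 FPKM in the PBS input. No IP library came near an input library. The change over both areas was -3.29 ± 0.127 at day 1, -2.85 ± 0.135 at day 2 and -2.92 ± 0.248 at day 14. In the mouse cortex COX-2 is known mainly from excitatory neurons, and the summed level of the 8 neuron markers was 151 to 177 scaled FPKM in the PBS IP of PFC and 2170 to 2480 in the PBS input. The part of neurons in the Ptgs2 result was not tested. Hpgds, the haematopoietic prostaglandin D synthase known from microglia and mast cells, changed by -2.68 ± 0.125, -1.92 ± 0.174 and -2.20 ± 0.169 at days 1, 2 and 14. Alox5ap changed by -1.94 ± 0.171, -2.30 ± 0.192 and -1.76 ± 0.172 at the same days. Ptgis, which encodes prostacyclin synthase, changed by -0.98 ± 0.232, -1.46 ± 0.194 and -0.55 ± 0.213. Pla2g4a, the gene of a cytosolic phospholipase A2 that releases arachidonic acid, differed little between the fractions, by -0.15, -0.19 and -0.19. It passed the test at day 2 alone, with adjusted p = 0.0489, and 12 of 16 libraries ended that call when left out, with adjusted p of 0.0557 to 0.124. Ptges3, which encodes the cytosolic prostaglandin E synthase also known as the Hsp90 co-chaperone p23, was higher in the IP by 0.60, 0.58 and 0.56, values that rest on the scaling. Without rescaling the median of all genes moved to -0.648, -0.654 and -0.660, Ptges3 stood at -0.033, -0.074 and -0.080, and Pla2g5 at day 2 stood at -0.027. Pla2g4a was then called at days 1 and 14 as well, at -0.725 and -0.749.

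The order of levels in the PBS IP of PFC at day 1 was Ptgds at 2330 ± 793 FPKM, Ptges3 at 33.0 ± 3.96, Ptges at 14.0 ± 0.921, Ptgs1 at 12.3 ± 2.00, Pla2g5 at 3.56 ± 0.346, Pla2g4a at 0.966 ± 0.179, Alox5ap at 0.859 ± 0.247, Ptgs2 at 0.409 ± 0.0882, Ptgis at 0.243 ± 0.0881 and Hpgds at 0.164 ± 0.0338 (SD, n = 4). Neighbours overlapped in their libraries for Ptges and Ptgs1, for Pla2g4a and Alox5ap, and among Ptgs2, Ptgis and Hpgds. In the PBS input of PFC, Ptgs1 at 7.44 ± 0.508 FPKM and Ptgs2 at 7.11 ± 0.922 FPKM lay side by side and overlapped (SD, n = 4). Hpgds and Ptgis were too low to be tested within the IP of a single day.

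**Figure D1:**
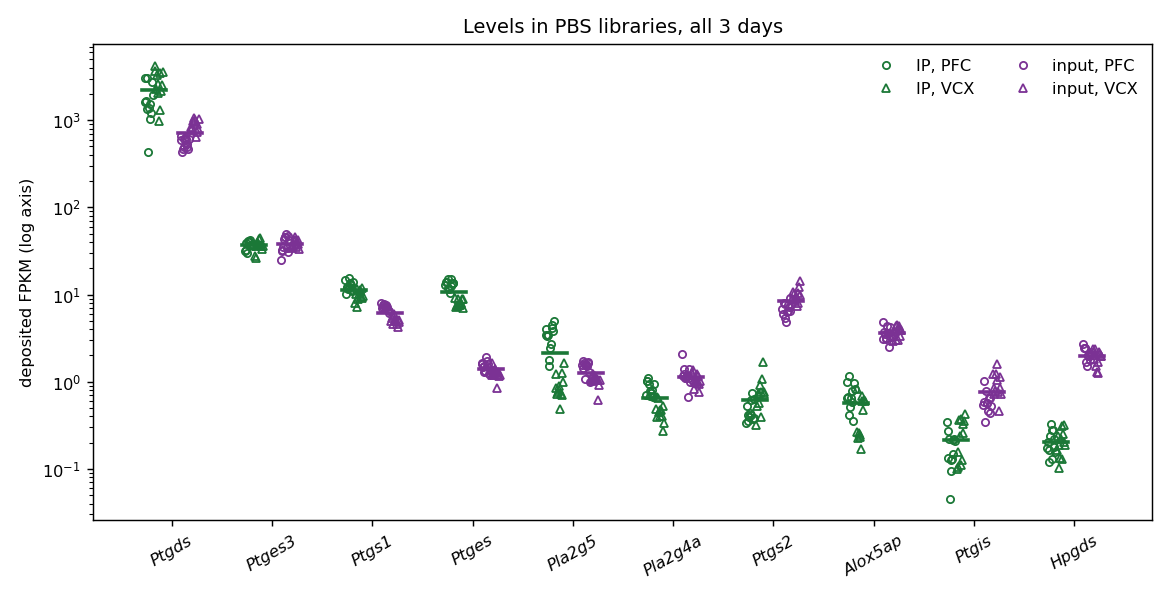
Level of each gene in FPKM on a log axis in the PBS libraries of all 3 days, IP left of input, with circles for PFC and triangles for VCX; points are libraries and bars are the means of a fraction. Ptgds lies highest in every library, Ptges and Ptgs1 lie higher in IP than in input, Pla2g5 does so in PFC, and Ptgs2, Hpgds and Alox5ap lie lower in IP.

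Ptgs1 (ENSMUSG00000047250) spans chr2:36230426-36252272 on the plus strand of mm10, Ptgs2 (ENSMUSG00000032487) spans chr1:150100031-150108227 on the plus strand, and Ptges (ENSMUSG00000050737) spans chr2:30889471-30929863 on the minus strand, by GENCODE vM21. Their promoters are printed because Ptges and Ptgs2 lie farthest apart between the fractions, on opposite sides, and Ptgs1 was lower with LPS in the IP. Each line gives the 250 bases before the RefSeq start site on GRCm38.p6, read 5′ to 3′ on the strand of the gene. The Ptges window lies inside the GENCODE span given above, so it does not cover the bases before the outermost start of that span. Capitals mark matches on either strand to the GC box GGGCGG, to the glucocorticoid receptor core element AGAACA and to the C/EBP motif TTNNGNAA.
Ptgs1, chr2:36230176-36230425, plus strand: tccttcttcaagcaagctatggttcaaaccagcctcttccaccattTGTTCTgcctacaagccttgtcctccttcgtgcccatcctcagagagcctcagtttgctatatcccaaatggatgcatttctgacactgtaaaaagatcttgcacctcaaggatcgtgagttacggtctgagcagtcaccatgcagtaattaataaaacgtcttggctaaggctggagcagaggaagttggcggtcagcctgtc
Ptgs2, chr1:150099781-150100030, plus strand: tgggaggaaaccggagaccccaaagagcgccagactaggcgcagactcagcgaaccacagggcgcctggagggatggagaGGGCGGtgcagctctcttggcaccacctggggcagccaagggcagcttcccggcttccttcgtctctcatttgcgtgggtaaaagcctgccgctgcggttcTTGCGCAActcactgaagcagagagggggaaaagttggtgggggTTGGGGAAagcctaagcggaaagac
Ptges, chr2:30903298-30903547, minus strand: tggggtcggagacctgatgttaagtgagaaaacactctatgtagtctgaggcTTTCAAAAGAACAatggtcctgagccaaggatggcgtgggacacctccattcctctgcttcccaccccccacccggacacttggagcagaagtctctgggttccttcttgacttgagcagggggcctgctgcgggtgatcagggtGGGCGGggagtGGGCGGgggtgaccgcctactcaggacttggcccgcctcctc
The Ptgs1 window held 1 match, to the glucocorticoid receptor element. The Ptgs2 window held 1 GC box and 2 C/EBP matches. The Ptges window held 2 GC boxes and 1 C/EBP match that overlaps the single glucocorticoid receptor match in its last base. Among 32851 promoter windows of the same length, 32.7% held the GC box, 16.1% the glucocorticoid receptor element and 36.8% the C/EBP motif, so each of these matches is common. None of the 3 windows held the cyclic AMP response element TGACGTCA (1.55% of all windows), an NF-kB motif (1.41%), an interferon response motif (2.98%) or the TATA box TATAAA (12.4%). A match describes letters in the window and is not evidence that a factor binds there.

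Among PBS mice the areas differed in 4 of the 8 genes tested in the IP at day 1, and in 3 of 8 at days 2 and 14. The share of all genes called was 7.83%, 7.49% and 5.32% at the 3 days. All of these calls were higher in PFC. Pla2g5 stood at 4.07, 3.42, 3.3 and 3.46 FPKM in PFC, against 1.22, 0.858, 0.715 and 0.771 FPKM in VCX, in the PBS IP at day 1. The areas did not overlap at any of the 3 days, and the log2 change between PFC and VCX was 1.93 ± 0.175, 1.47 ± 0.202 and 1.95 ± 0.247, with limma adjusted p of 1.76e-06, 0.00029 and 0.000185. Ptges was higher in PFC by 0.77 ± 0.158, 0.65 ± 0.0653 and 0.80 ± 0.0803. Pla2g4a was higher by 0.73 ± 0.201, 0.74 ± 0.149 and 0.94 ± 0.19, and the day 1 call was ended by leaving out any of 5 of its 8 libraries, with adjusted p of 0.0875 to 0.106. Alox5ap was higher in PFC at day 1 by 1.12 ± 0.26 (adjusted p = 0.0133, and 0.0551 without the PBS IP library of VCX numbered 3), and at 0.76 and 0.30 did not pass at days 2 and 14. Other IP area differences were called in an alternative setting though not in the main fit. Ptgds was lower in PFC at day 1 by -0.57 in a fit of its own groups (limma adjusted p = 0.00983). Ptgs1 was higher in PFC at day 2 by 0.402 with limma-voom (adjusted p = 0.0362). At day 14 it was higher by 0.34 in a fit of its own groups (adjusted p = 0.0356). In the input, 4, 4 and 2 of 10 genes differed at days 1, 2 and 14, with 13.7%, 16.1% and 7.92% of all genes called. Ptgds was lower in PFC by -0.67 ± 0.118, -0.65 ± 0.156 and -0.74 ± 0.129. Ptgs1 was higher in PFC by 0.53 ± 0.0767, 0.48 ± 0.0644 and 0.48 ± 0.124, the last call being lost without any of 6 of 8 libraries at adjusted p of 0.0573 to 0.0822. Ptgs2 was lower in PFC by -0.43 ± 0.118 at day 1 (4 of 8 libraries end the call when left out, at 0.0533 to 0.0725) and by -0.55 ± 0.105 at day 2. Pla2g5 in the input at day 1 (0.50 ± 0.156, adjusted p = 0.0418) and Ptgis at day 2 (-0.83 ± 0.245, adjusted p = 0.033) passed, but 7 and 6 of 8 libraries ended these calls when left out, at 0.0646 to 0.0969 and 0.0529 to 0.092.

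Ptgs1 in the IP was lower with LPS at day 1 in both areas. The COX-1 gene stood at 3.39, 3.11, 4.33 and 5.29 FPKM in the LPS IP of PFC, against 14.9, 10, 12 and 12.2 FPKM in the PBS IP. The VCX levels were 3.79, 2.87, 4.41 and 2.6 FPKM in the LPS IP, against 8.1, 10.2, 7.14 and 11.6 FPKM in the PBS IP. In both areas the highest LPS library lay below the lowest PBS library. The log2 change was -1.61 ± 0.19 in PFC (limma adjusted p = 2.48e-05) and -1.42 ± 0.19 in VCX (adjusted p = 6.99e-05), and both calls held in every alternative setting and with any library left out. In the day 1 IP, 2 genes of the 8 tested were higher and 1 lower in PFC, with 10.2% of all genes called higher and 10.5% lower. In VCX 3 were higher and 1 lower, with 11.6% and 9.47% of all genes. The median change of the tested members was 0.284 in PFC and 0.332 in VCX, against -0.0252 and -0.00119 over all genes. Since the members were chosen with earlier results of these data known, this difference is description only. Groups that did not overlap were found in 25.2% of all genes in PFC and 18.6% in VCX.

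In the input Ptgs1 was not called at day 1. It stood at 8.35, 7.79, 7.84 and 7.71 FPKM in the LPS input of PFC, against 8.09, 6.93, 7.16 and 7.57 FPKM in the PBS input. Levels in VCX were 5.93, 5.16, 5.76 and 5.81 FPKM in the LPS input, against 4.92, 5.42, 4.63 and 5.65 FPKM in the PBS input. The groups overlapped in both areas. The LPS effect differed between IP and input by -1.65 ± 0.212 in PFC (adjusted p = 6.23e-06, 5.65% of all genes called) and by -1.52 ± 0.212 in VCX (adjusted p = 2.2e-05, 8.67% called). COX-1 is known in the brain mainly from microglia, and the 11 microglia markers summed to 338 to 380 scaled FPKM in the LPS input of PFC and 214 to 224 in the PBS input. Their part in the result was not tested. In bulk RNA, fewer cells of a type and less RNA per cell cannot be told apart.

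By limma, Ptgs2 did not pass the test in any IP or input comparison of LPS with PBS. At day 1 its level was 0.593, 0.432, 0.393 and 0.556 FPKM in the LPS IP of PFC, against 0.339, 0.532, 0.413 and 0.352 FPKM in the PBS IP. The groups overlapped, and the log2 change was 0.23 (adjusted p = 0.543). Its input level in PFC was 8.36, 8.13, 11.5 and 9.43 FPKM with LPS, against 6.81, 5.94, 7.95 and 7.73 FPKM with PBS. There every LPS library lay above every PBS library, and the log2 change was 0.34 ± 0.118 with limma adjusted p = 0.06. Ptgs2 was called there with limma-voom on the recovered reads (adjusted p = 0.0416) and without rescaling (adjusted p = 0.0309). The ratio of Ptgs1 to Ptgs2 FPKM within a library carries both genes. It ran from 5.71 to 11 in the LPS IP of PFC and from 18.8 to 43.9 in the PBS IP at day 1. In VCX it ran from 4.36 to 5.48 with LPS and from 9.93 to 25.6 with PBS. The ratio in the input of PFC ran from 0.681 to 0.999 with LPS and from 0.901 to 1.19 with PBS. In the input of VCX it ran from 0.469 to 0.621 with LPS and from 0.46 to 0.632 with PBS. The IP ratios divide by low Ptgs2 levels, with 64 to 120 reads per PBS IP library in PFC and 60 to 176 in VCX.

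**Figure D2:**
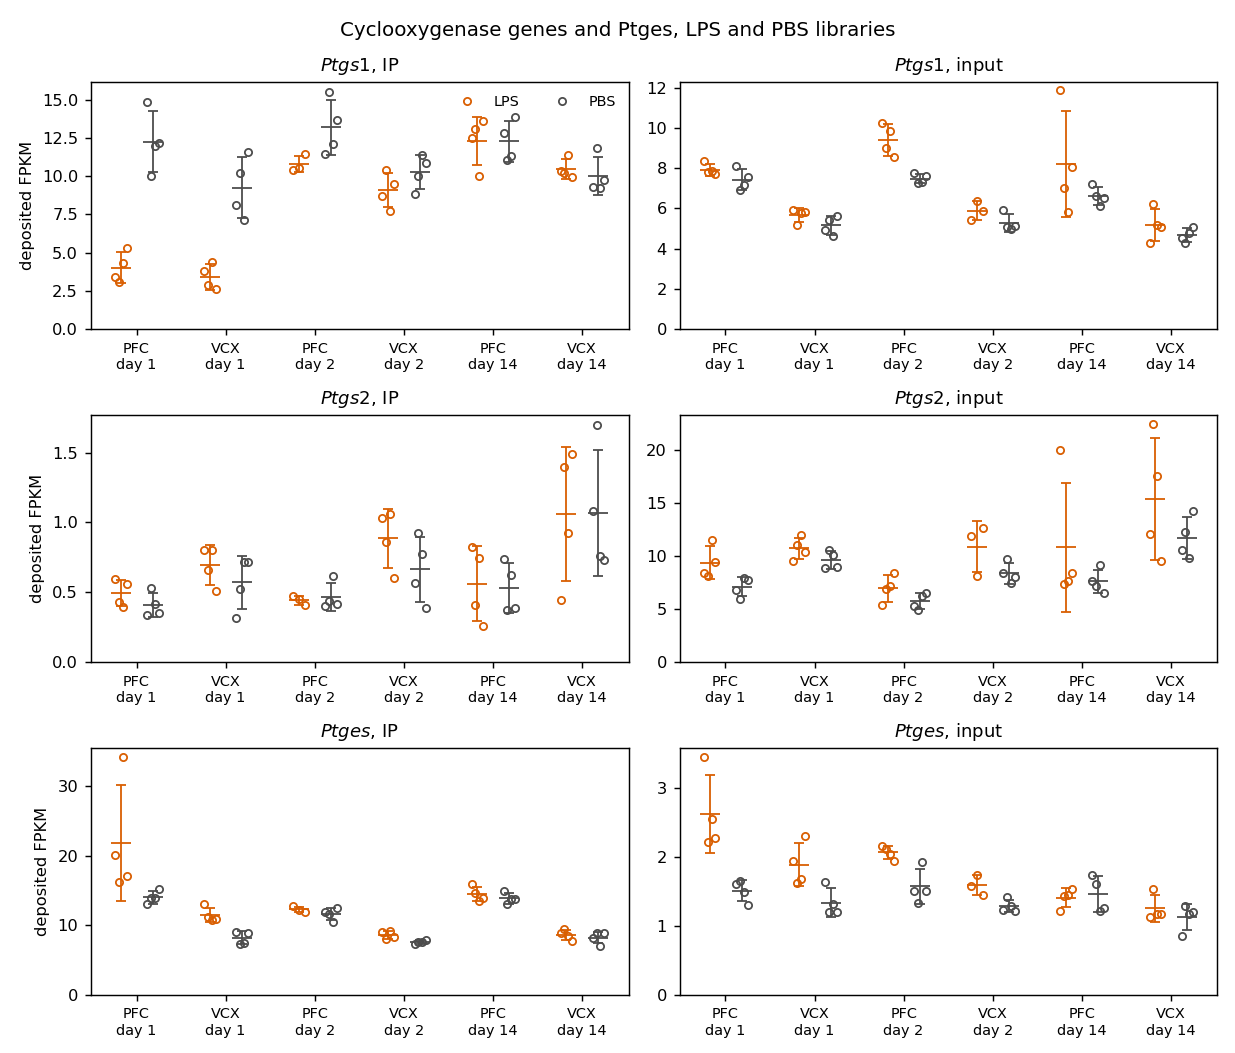
FPKM of Ptgs1, Ptgs2 and Ptges (rows) in IP and input (columns) by area, day and treatment, LPS left of PBS; points are libraries, dashes means and bars SD (n = 3 or 4). Ptgs1 lies lower with LPS in the IP at day 1 in both areas, where the LPS libraries of PFC reach 5.29 FPKM at most, and no such gap is seen in the input.

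Ptges was higher with LPS in 3 of the 4 day 1 comparisons of IP and input. In the IP of PFC it stood at 20.1, 16.2, 34.2 and 17.1 FPKM with LPS, against 13, 13.9, 13.8 and 15.2 FPKM with PBS. All 4 LPS libraries lay above the PBS libraries, and replicate 3 lay far above the rest. The log2 change was 0.57 ± 0.158 (limma adjusted p = 0.0174). Without that library it was 0.345 (adjusted p = 0.0151), and without PBS replicate 2 or 3 the adjusted p was 0.0501 and 0.0537. In the IP of VCX the levels were 13.1, 11.2, 10.7 and 10.9 FPKM with LPS, against 9.08, 7.25, 7.51 and 8.92 FPKM with PBS. These groups did not overlap either, and the change was 0.49 ± 0.158 (adjusted p = 0.0383). That call ended without any of 7 of the 8 libraries, at adjusted p of 0.0533 to 0.104. The input levels in PFC were 3.45, 2.22, 2.55 and 2.27 FPKM with LPS, against 1.61, 1.65, 1.49 and 1.3 FPKM with PBS. Again no LPS library was as low as a PBS library, and the change was 0.69 ± 0.15 (adjusted p = 0.00477). For the VCX input the change was 0.42 ± 0.15 (adjusted p = 0.0656). Endothelial and microglia markers moved as well. The 10 endothelial markers summed to 67.5 to 78.9 scaled FPKM in the LPS input of PFC and 42 to 45.8 in the PBS input, with 5 higher and none lower, and 8 of 11 microglia markers were higher and 3 lower. In the IP the endothelial sum was 8.57 to 13.3 with LPS and 7.45 to 9.48 with PBS in PFC, and 11 to 16.7 with LPS and 6.7 to 9.91 with PBS in VCX. Their part in the Ptges result was not tested. In the input at day 1, 3 of 10 genes were higher and none lower in PFC, with 8.09% and 8.59% of all genes called. In VCX 2 were higher and 1 lower, with 7.89% and 9.74% of all genes called. Groups did not overlap in 20.9% of all genes in PFC and 22.6% in VCX.

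Of the other terminal synthases, Ptges3 alone was called at day 1. It was lower in the input of VCX, where it stood at 28.6, 30.5, 28.9 and 29.6 FPKM with LPS, against 34.2, 35.8, 37.1 and 35.9 FPKM with PBS. The groups lay apart, and the change was -0.32 ± 0.0816 (adjusted p = 0.0111). The Ptges3 change differed between IP and input of VCX by 0.45 ± 0.131 (adjusted p = 0.0282), but 7 of 16 libraries ended that call when left out, at 0.0561 to 0.0746. Reads of Ptges3 may be shared with its processed pseudogene, so its level is uncertain. Ptgds in the IP of PFC stood at 2457, 739, 679 and 2770.0 FPKM with LPS, against 3017, 1625, 1663 and 3016 FPKM with PBS. Within each group the higher pair of libraries was female and the lower pair male, so the groups overlapped across the sexes. The change with sex in the model was -0.72 ± 0.25 (adjusted p = 0.0612, and 0.0292 in a fit of its own groups) in PFC and -0.08 in VCX. Ptgds is a known product of meningeal cells. The 10 meningeal fibroblast markers summed to 76 to 139 scaled FPKM in the LPS IP of PFC and 88.3 to 148 in the PBS IP, and 1 was higher and 4 were lower with LPS. Their part in the result was not tested. Hpgds in the input of PFC was at 2.19, 1.83, 1.88 and 1.74 FPKM with LPS, against 2.68, 2.45, 2.41 and 2.44 FPKM with PBS at day 1. The groups did not overlap, and the change of -0.41 missed the threshold (limma adjusted p = 0.074). Hpgds was called there with limma-voom (adjusted p = 0.0459) and in a fit of its own groups (adjusted p = 0.0377).

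In the IP at days 1 and 2 the gene most raised by LPS among the 10, on the log2 scale, was Alox5ap, while in the day 1 input Pla2g4a had the larger change. In the day 1 IP of PFC it stood at 3.75, 4.23, 2.88 and 3.56 FPKM with LPS, against 0.982, 0.646, 0.661 and 1.15 FPKM with PBS. VCX showed 2.74, 3.5, 4.08 and 4.89 FPKM with LPS, against 0.82, 0.265, 0.227 and 0.257 FPKM with PBS. No library of one treatment reached the range of the other. The changes were 2.00 ± 0.26 (limma adjusted p = 4.85e-05) and 3.18 ± 0.26 (adjusted p = 4.54e-07). The PBS IP libraries held only 30 to 46 reads of Alox5ap in PFC and 10 to 32 in VCX. The size of the IP changes, and their excess over the input, thus rest on low PBS levels. In the input Alox5ap stood at 5.75, 8.59, 5.18 and 6.64 FPKM with LPS, against 4.85, 3.08, 3.76 and 3.54 FPKM with PBS in PFC. The VCX input held 8.69, 6.99, 5.52 and 8.55 FPKM with LPS, against 2.92, 3.31, 3.8 and 3.7 FPKM with PBS. Both input comparisons were separated too, with changes of 0.70 ± 0.169 (adjusted p = 0.00944) and 1.03 ± 0.169 (adjusted p = 0.000499). The change in the IP exceeded that in the input by 1.29 ± 0.341 in PFC (adjusted p = 0.0215) and 2.14 ± 0.341 in VCX (adjusted p = 0.000155). The PFC difference was no longer called without PBS IP replicate 2, PBS IP replicate 3, LPS IP replicate 2 or LPS input replicate 3, at adjusted p of 0.0506 to 0.0581.

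Alox5ap is known from myeloid cells, and markers of such cells moved with it. The 11 microglia markers summed to 79.5 to 90.2 scaled FPKM in the LPS IP of PFC and 53.8 to 59.8 in the PBS IP, and 6 were higher and 2 lower of 10 tested. In VCX they summed to 66 to 83.4 with LPS and 41.6 to 50.1 with PBS, with 7 higher and 2 lower. The 10 neutrophil and monocyte genes found in the files summed to 155 to 233 scaled FPKM in the LPS IP of PFC and 12.7 to 46.9 in the PBS IP, and all 10 were higher. In VCX the sums were 131 to 197 with LPS and 9.29 to 21.9 with PBS, again with 10 of 10 higher. In the input of PFC the same list summed to 13.8 to 27.6 with LPS and 2.43 to 6.32 with PBS. The neutrophil and monocyte sum was thus higher in the IP than in the input. The part of these cells in the Alox5ap result was not tested. Of the neutrophil markers the collagenase gene Mmp8 averaged 2.82 scaled FPKM in the LPS IP of PFC and 0.393 in the PBS IP.

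Pla2g4a was higher with LPS in the input of both areas and in the IP of VCX. In the input of PFC it stood at 2.65, 3, 2.51 and 2.25 FPKM with LPS, against 2.08, 1.17, 1.41 and 1.21 FPKM with PBS. The VCX input held 2.6, 2.26, 2.61 and 3.05 FPKM with LPS, against 1.26, 1.37, 1.05 and 0.83 FPKM with PBS. The groups lay apart in both areas, and the changes were 0.76 ± 0.174 (limma adjusted p = 0.00674) and 1.12 ± 0.174 (adjusted p = 0.000281). Besides the PFC sums given above, in the VCX input the microglia markers summed to 289 to 340 scaled FPKM with LPS and 200 to 206 with PBS, and the endothelial markers to 71.6 to 75.8 with LPS and 37.7 to 47.6 with PBS. Of these, 7 of 11 microglia markers were higher and 3 lower, and 7 of 10 endothelial markers were higher. Their part in the Pla2g4a result was not tested. In the IP of VCX the levels were 0.842, 0.948, 0.997 and 0.91 FPKM with LPS, against 0.492, 0.397, 0.66 and 0.658 FPKM with PBS. The change there was 0.69 ± 0.201 (adjusted p = 0.0204), with adjusted p of 0.0645, 0.0759 and 0.0546 without PBS replicate 1, PBS replicate 2 and LPS replicate 3. In the IP of PFC the levels were 1.97, 1.09, 0.978 and 1.48 FPKM with LPS, against 0.705, 1.01, 1.03 and 1.11 FPKM with PBS, which overlap, and the change of 0.44 was not called (adjusted p = 0.134). Pla2g5 in the IP of PFC stood at 4.22, 5.22, 3.24 and 5.87 FPKM with LPS, against 4.07, 3.42, 3.3 and 3.46 FPKM with PBS. The groups overlapped, and the changes of 0.34 in PFC and 0.38 in VCX were not called (adjusted p = 0.19 and 0.141).

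**Figure D3:**
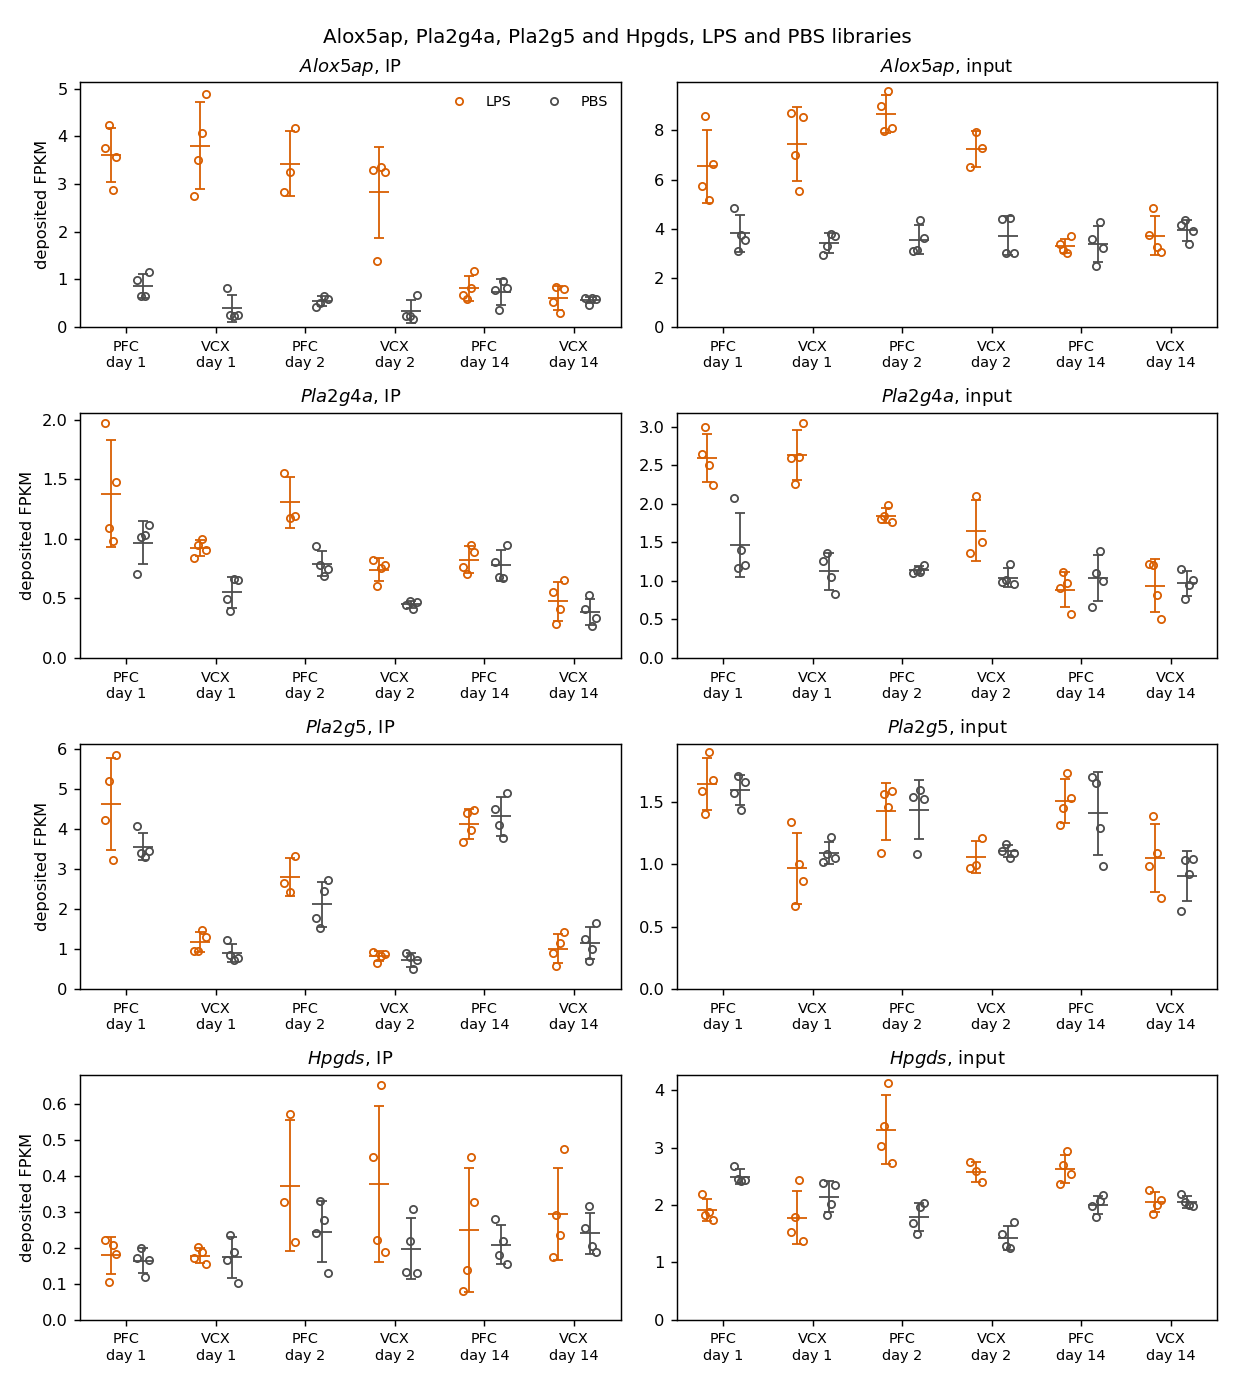
FPKM of Alox5ap, Pla2g4a, Pla2g5 and Hpgds (rows) in IP and input (columns) by area, day and treatment, LPS left of PBS; points are libraries, dashes means and bars SD (n = 3 or 4). Alox5ap with LPS lies above PBS in IP and input at days 1 and 2 and overlaps PBS at day 14, and Hpgds with LPS lies above PBS in the input at day 2.

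**Figure D4:**
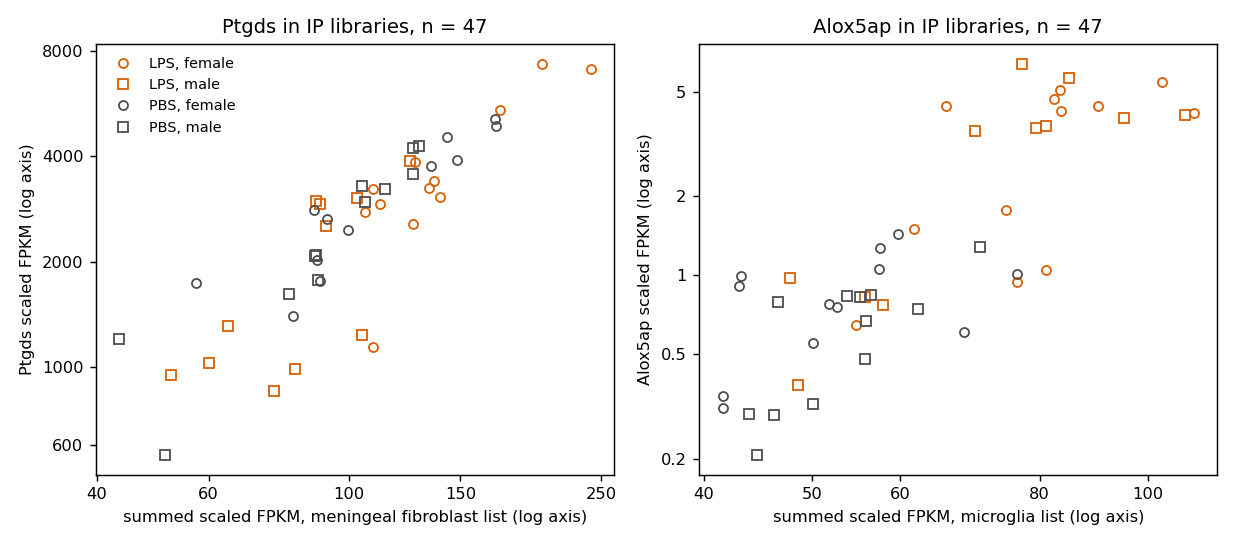
Left, Ptgds against the summed level of the 10 meningeal fibroblast markers; right, Alox5ap against the summed level of the 11 microglia markers, in the 47 IP libraries, in scaled FPKM on log axes with symbols by treatment and sex. The highest Ptgds levels lie at the highest meningeal sums, and a set of LPS libraries lies apart from the rest at both high Alox5ap and a high microglia sum.

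At day 2 Ptgs1 in the IP was no longer called. It stood at 10.4, 10.6 and 11.4 FPKM in the LPS IP of PFC, against 11.5, 15.5, 12.1 and 13.7 FPKM in the PBS IP. Its VCX levels were 8.74, 10.4, 7.75 and 9.48 FPKM with LPS, against 8.86, 10.1, 11.4 and 10.9 FPKM with PBS. Every LPS library of PFC was still below every PBS library, and those of VCX overlapped. The changes of -0.30 ± 0.125 and -0.21 ± 0.115 were not called (limma adjusted p = 0.145 and 0.285). The LPS effect at day 2 differed from that at day 1 by 1.30 ± 0.224 in PFC (adjusted p = 0.000335, 4.38% of genes called) and 1.21 ± 0.215 in VCX (adjusted p = 0.000289, 7.47% called). In the input of PFC at day 2 Ptgs1 was slightly higher, at 10.2, 9, 9.85 and 8.54 FPKM with LPS, against 7.75, 7.27, 7.34 and 7.59 FPKM with PBS. The groups lay apart, and the change was 0.28 ± 0.0644 (adjusted p = 0.0247), a call that ended without any of 6 of the 8 libraries at 0.0618 to 0.1.

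At day 2 Alox5ap and Pla2g4a were higher with LPS in both fractions and areas. In the IP these were the 2 higher of 8 genes tested in each area and none was lower, with 4.18% and 5.43% of all genes called higher and lower in PFC and 3.72% and 3.99% in VCX. Groups did not overlap in 22.1% of all genes in PFC and 11.7% in VCX. Alox5ap stood at 2.84, 3.26 and 4.17 FPKM in the LPS IP of PFC, against 0.419, 0.512, 0.658 and 0.584 FPKM in the PBS IP. In VCX it stood at 3.3, 1.4, 3.35 and 3.26 FPKM with LPS, against 0.244, 0.23, 0.17 and 0.682 FPKM with PBS. The groups lay apart in both areas, and the changes were 2.46 ± 0.377 (limma adjusted p = 0.00111) and 2.85 ± 0.347 (adjusted p = 0.000137). These too rest on low PBS levels, with 18 to 24 reads per PBS IP library in PFC and 3 to 26 in VCX. In the input Alox5ap stood at 8.97, 7.97, 9.6 and 8.1 FPKM with LPS, against 3.1, 3.15, 4.34 and 3.64 FPKM with PBS in PFC. In VCX it stood at 6.49, 7.93 and 7.3 FPKM with LPS, against 4.38, 3.02, 4.46 and 3.03 FPKM with PBS. Again no treatment reached the range of the other, with changes of 1.22 ± 0.129 (adjusted p = 5.35e-05) and 0.94 ± 0.14 (adjusted p = 0.00203). The microglia markers summed to 81 to 110.0 scaled FPKM in the LPS IP of PFC and 50.1 to 56.5 in the PBS IP at day 2, and to 418 to 565 in the LPS input and 214 to 247 in the PBS input. In the IP of VCX the LPS effect on Alox5ap exceeded that in the input by 1.94 ± 0.401 (adjusted p = 0.0111, 1.13% of genes called), a call that ended with a pseudocount of 1 and in a fit of its own groups. The difference was not called in PFC (1.26, adjusted p = 0.189, and 0.0124 in a fit of its own groups, 0.84% called).

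Pla2g4a stood at 1.55, 1.18 and 1.19 FPKM in the LPS IP of PFC at day 2, against 0.937, 0.784, 0.691 and 0.748 FPKM in the PBS IP. In VCX it stood at 0.826, 0.608, 0.756 and 0.78 FPKM with LPS, against 0.447, 0.476, 0.408 and 0.472 FPKM with PBS. LPS and PBS libraries were separated in both areas, with changes of 0.66 ± 0.162 (limma adjusted p = 0.0196) and 0.60 ± 0.149 (adjusted p = 0.0235). Each call was ended by 4 libraries when left out, at adjusted p of 0.0503 to 0.142 in PFC and 0.0535 to 0.0745 in VCX. In the input the changes were 0.60 ± 0.112 in PFC (adjusted p = 0.00507) and 0.57 ± 0.121 in VCX (adjusted p = 0.0212). The VCX call was lost without PBS replicate 1, LPS replicate 2 or LPS replicate 3, at adjusted p of 0.0653, 0.232 and 0.055. The endothelial markers summed to 48.9 to 62.1 scaled FPKM in the LPS input of PFC and 31.8 to 36.1 in the PBS input, and to 55.5 to 63.1 in the LPS input of VCX and 32.3 to 41.3 in the PBS input. Their part was not tested.

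Hpgds was higher with LPS in the input of both areas at day 2. In PFC it stood at 3.02, 3.37, 4.12 and 2.74 FPKM with LPS, against 1.69, 1.5, 1.96 and 2.04 FPKM with PBS. In VCX it stood at 2.75, 2.6 and 2.4 FPKM with LPS, against 1.5, 1.29, 1.25 and 1.7 FPKM with PBS. LPS and PBS libraries did not overlap in either area, and the changes were 0.79 ± 0.14 (limma adjusted p = 0.00338) and 0.76 ± 0.152 (adjusted p = 0.0142). The VCX call was lost without LPS replicate 1 or 2, at adjusted p of 0.0726 and 0.114. The LPS effect at day 2 exceeded that at day 1 by 1.2 ± 0.186 in PFC (adjusted p = 0.000136, 1.83% of genes called) and 1.07 ± 0.194 in VCX (adjusted p = 0.00117, 1.59% called). At day 1 itself the lower values with LPS were not called. In the day 2 input 4 of 10 genes were higher in PFC and 3 of 10 in VCX, none lower, with 3.25% and 1.76% of all genes called higher and 0.471% and 0.259% called lower. Groups did not overlap in 10.8% and 7.84% of all genes. The microglia list had 9 of 11 markers higher in PFC and 7 of 11 in VCX in the same comparisons, with none lower. Their part in the Hpgds result was not tested.

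At day 14 none of the 10 genes was called in either area or fraction by limma, and no gene at all was (0% of genes tested). Of 36 tests of members at that day, 2 had an unadjusted p under 0.05, Hpgds and Ptgds in the input of PFC, and limma-voom called none. Hpgds stood at 2.37, 2.69, 2.94 and 2.54 FPKM in the LPS input of PFC, against 1.99, 1.78, 2.06 and 2.17 FPKM in the PBS input. These groups did not overlap, nor did those of 2.22% of all genes, and the adjusted p was 0.992. Ptgs1 stood at 12.5, 13.1, 10 and 13.6 FPKM in the LPS IP of PFC, against 12.8, 11.1, 11.3 and 13.9 FPKM in the PBS IP. Alox5ap stood at 0.667, 0.593, 0.828 and 1.17 FPKM with LPS, against 0.777, 0.358, 0.978 and 0.83 FPKM with PBS in the same libraries. LPS and PBS overlapped for both genes. Set against day 1, the LPS effect on Ptgs1 in the IP differed by 1.57 ± 0.215 in PFC and 1.43 ± 0.215 in VCX, and that on Alox5ap by -1.86 ± 0.437 and -3.22 ± 0.437, with 10.2% and 12.6% of genes called. That on Ptges in the IP differed by -0.55 ± 0.167 in PFC and -0.48 ± 0.167 in VCX (adjusted p = 0.0266 and 0.0496). The PFC value was -0.318 (adjusted p = 0.0681) without LPS replicate 3 of day 1 and also lost its call without PBS replicate 1 or LPS replicate 3 of day 14, and the VCX call ended without any of 13 of 16 libraries at 0.0506 to 0.111. In the input of PFC the effect differed by -0.72 ± 0.19 for Ptges, 0.79 ± 0.186 for Hpgds, -0.72 ± 0.228 for Alox5ap and -0.95 ± 0.286 for Pla2g4a (8.9% of genes called). The Alox5ap and Pla2g4a calls there ended without any of 10 and 5 of 16 libraries, at adjusted p of 0.0553 to 0.113 and 0.058 to 0.0919. The VCX input effect differed by -1.15 ± 0.228 for Alox5ap and -1.24 ± 0.286 for Pla2g4a (7.96% called).

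Some calls named above also ended in another setting. Fitted with their own groups alone, the calls of Ptges in the day 1 IP of PFC, of Pla2g4a in both IP areas and the VCX input at day 2, and of Hpgds in the VCX input at day 2 were lost. The same fit ended the Hpgds difference between days in VCX and the day 14 differences of Ptges in both fractions and of Alox5ap and Pla2g4a in the PFC input. Without the filter on low values or without rescaling the call of Ptges in the day 1 IP of VCX was lost. Without the sex term the calls of Ptgs1 in the PFC input at day 2, of its input area difference at day 14 and of the Ptges3 difference between fractions were lost. With a pseudocount of 1 or limma-voom, Alox5ap and Pla2g4a were no longer called between areas in the day 1 IP. The small Pla2g4a difference between fractions at day 2 was lost with a pseudocount of 1, without the filter, without the sex term, with limma-voom and with its own groups alone. The day 14 difference of Ptges in the IP of VCX was lost in the same settings, without rescaling and with median-of-ratios factors. Without the filter the calls of Pla2g5 between areas in the day 1 input and of Alox5ap between days 14 and 1 in the PFC input were lost, and without the 3 shallowest libraries so was that of Ptges in the PFC input.

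The LPS effect was not called different between PFC and VCX for any of the 10 genes, at any day, in IP or input, and limma called no gene at all in these 6 comparisons (0%). Of 54 tests of members, 2 had an unadjusted p under 0.05, Alox5ap in the IP at day 1 and Hpgds in the input at day 14, and limma-voom called none. A miss of the threshold does not show that the areas responded alike.

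**Figure D5:**
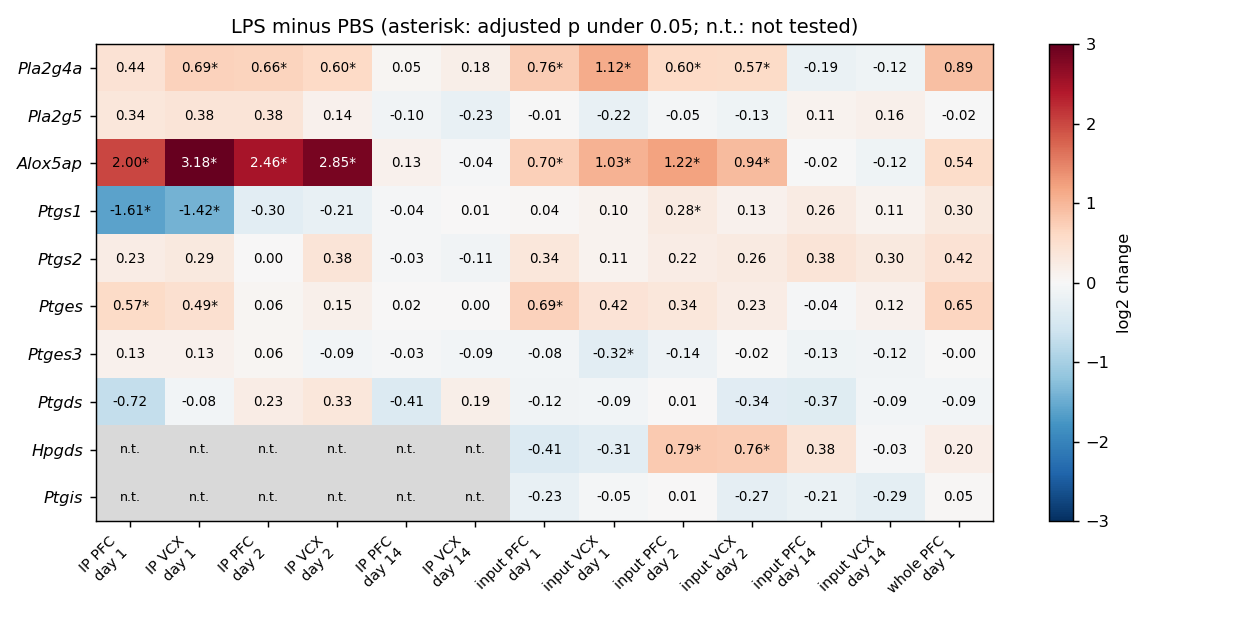
Log2 change with LPS against PBS for each of the 10 genes (rows) in the 13 comparisons (columns) of fraction, area and day; colour gives size and direction, an asterisk marks a limma adjusted p under 0.05, and n.t. marks a gene too low to test. Ptgs1 is negative and called in the day 1 IP alone, Alox5ap is positive and called in all 8 IP and input comparisons of days 1 and 2 but not in whole tissue, and no cell of day 14 is called.

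In whole tissue of PFC at day 1, limma called none of the 10 genes and 0.027% of all genes, while 4 members had an unadjusted p under 0.05 and limma-voom called 2. The titles of all 7 libraries name LPS, and the groups follow the treatment label. For replicates 3 and 4 labelled PBS the number in the title differs from that in the header of the file, so which label belongs to which of these libraries is uncertain. One library labelled PBS, replicate 3, stood apart from its label in markers that LPS moved. Its 11 microglia markers summed to 489 scaled FPKM, against 485 to 551 in the LPS libraries and 266, 271 and 309 in the other PBS libraries. Its neutrophil and monocyte genes summed to 10.9, against 18.4 to 24.6 with LPS and 2.08, 3.89 and 3.23 in the other PBS libraries. Pla2g4a stood at 2.55, 2.74 and 2.56 FPKM with LPS, against 1.05, 1.1, 2.3 and 1.12 FPKM in the libraries labelled PBS. Ptges stood at 3.46, 3.58 and 3.42 FPKM with LPS, against 1.88, 1.93, 2.77 and 2.02 FPKM in those labelled PBS. The third value is that of the library that stood apart, and in both genes it lay nearer to the LPS libraries than any other library labelled PBS. LPS and PBS still did not overlap in either gene, as in 16.5% of all genes. With it, the changes were 0.89 for Pla2g4a (adjusted p = 0.156), 0.65 for Ptges (adjusted p = 0.102), 0.54 for Alox5ap (0.405), 0.42 for Ptgs2 (0.154) and 0.30 for Ptgs1 (0.214). Each library was left out in turn, but this one was singled out after its values, those of Pla2g4a and Ptges among them, were seen, so the calls gained without it depend on that choice and are no independent evidence. Without it, all 5 of these genes were called higher and none lower, with 9.87% of all genes called, 6.85% higher and 3.02% lower. The changes were then 1.14 ± 0.101 for Pla2g4a (limma adjusted p = 2.51e-05), 0.77 ± 0.0864 for Ptges (0.000158), 0.78 ± 0.127 for Alox5ap (0.00525), 0.50 ± 0.0974 for Ptgs2 (0.0086) and 0.39 ± 0.0739 for Ptgs1 (0.00643).

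The genes around these in the pathway changed in part. Their counts stand against 10.2% of all genes called higher and 10.5% lower in the day 1 IP of PFC, and 11.6% and 9.47% in VCX. In the day 1 input 8.09% of all genes were higher and 8.59% lower in PFC, and 7.89% and 9.74% in VCX. Of 9 prostanoid receptor genes, 5 could be tested in the IP. At day 1 in PFC Ptger3 (-0.79 ± 0.267) and Ptgfr (-0.66 ± 0.227), receptors of prostaglandins E2 and F2 alpha, were lower with LPS, and in VCX none of the 5 was called. In the input Ptger4, another E2 receptor, was higher in PFC at 1.00 ± 0.283 (limma adjusted p = 0.024), and Ptger3 was lower in VCX at -0.47 ± 0.14. Among 5 tested genes of prostaglandin transport and breakdown, Hpgd, the dehydrogenase that inactivates prostaglandins, was lower in the IP of PFC at -0.82 ± 0.215. It was lower in the input too, at -0.80 ± 0.13 in PFC and -0.70 ± 0.13 in VCX. The list as a whole was not lower in the day 1 IP. Its 6 genes summed to 139 to 163 scaled FPKM with LPS and 130 to 139 with PBS in PFC. In the IP of VCX they summed to 131 to 146 with LPS and 113 to 136 with PBS. The input sums were 16.7 to 17.9 with LPS and 19.9 to 21.7 with PBS in PFC, and 15.5 to 17.6 and 17.3 to 19.2 in VCX. Of the other synthases and reductases, 1 of 4 tested was lower in the day 1 IP of PFC (Cbr1) and 2 of 4 in VCX (Cbr1 and Ptges2), and none was higher, where 10.5% and 9.47% of all genes were lower.

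Of the genes listed as other phospholipases and regulators of release, 3 were higher and 4 lower of 13 tested in the day 1 IP of PFC (10.2% and 10.5% of all genes), and 3 higher and 1 lower in VCX (11.6% and 9.47%). Pla2g3, which encodes the secreted group III phospholipase A2, was higher in the IP at 1.56 ± 0.181 in PFC and 1.10 ± 0.181 in VCX. Anxa1, which encodes annexin A1, an inhibitor of phospholipase A2, was higher at 1.13 ± 0.263 in PFC and 1.48 ± 0.263 in VCX at day 1, and at 2.04 ± 0.387 and 1.71 ± 0.356 at day 2. Dagla, the diacylglycerol lipase that makes the endocannabinoid 2-arachidonoylglycerol, was lower at -0.53 and -0.52 at day 1. Of 5 reacylation genes, which return arachidonic acid to membranes, Lpcat2 was higher at 0.61 ± 0.198 and 0.90 ± 0.198 in the day 1 IP of PFC and VCX, while Mboat7 (-0.38 and -0.37) and Lpcat3 (-0.28 and -0.34) were lower.

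Among the lipoxygenase and leukotriene genes of the input at day 1, Alox5, the 5-lipoxygenase partner of Alox5ap, was higher at 1.75 ± 0.217 in PFC and 1.67 ± 0.217 in VCX. Ltc4s, the leukotriene C4 synthase gene, was lower at -1.2 ± 0.32 and -1.72 ± 0.32 in the same libraries. In each area 3 genes of that list were higher and 1 lower of 8 tested, against 8.09% and 8.59% of all genes in PFC and 7.89% and 9.74% in VCX. Of the arachidonic acid epoxygenase genes, 1 of 5 tested was higher in the day 1 IP of PFC (10.2% of all genes) and 1 higher and 1 lower in VCX (11.6% and 9.47%), with Cyp2j9 higher in both areas at 0.65 and 0.58. None of the genes of these lists was called at day 14, as none of all genes was.

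Over the 47 IP libraries, with each day's mean removed, the genes whose log2 level followed each member most closely were found among 11715 others. Ptgs1 went with Smarcd3 (r = 0.936), Loxl1 (0.909) and Apln (0.905). Ptges went with Fam129b (0.937), Ccnd1 (0.927) and Tfcp2l1 (0.899). Ptgds went with Slc6a20a (0.983), Fmod (0.977) and Slc6a13 (0.975), the last of which is 1 of the meningeal fibroblast markers. Alox5ap went with Tgfbi (0.949), Itgam (0.94), which encodes a myeloid integrin, and Ptpn6 (0.931). Pla2g5 went with Cyp27a1 (0.958) and Cd38 (0.936). The libraries share treatment, area and sequencing project within a day, so these are descriptions of shared pattern.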

How the data were processed

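PolyA RNA-seq of 101 mouse cortex libraries was analysed, grouped by the labels for treatment, area, fraction and day. The authors deposited FPKM values per gene and library, made, per the submitters' processing notes, with STAR and HTSeq on mm10 (versions not given). Whether counting used the strand is not given in the sources used here, and 7 of the 10 genes overlap another annotated gene. Within a gene, FPKM are whole multiples of a step per library, from which reads were worked back: 100% of values came out whole within 0.05 reads. These reads gave the depth and the TMM scaling factors (30% trimmed on M, 5% on A).

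Scaled FPKM plus 0.1 were log2-transformed and tested with limma 3.58.1 in R 4.3.3, with a mean trend, robust moderation and sex as a covariate (not in whole tissue, all female). Tested genes had at least 0.5 FPKM in the number of libraries of the smallest group. A single fit served all groups of a fraction at a day. Comparisons between IP and input used a fit of both fractions of a day. Those between days used a fit of all 3 days of a fraction. In all 42 comparisons were made, with Benjamini-Hochberg adjustment over all genes tested. Changes understate those of low genes, because of the added 0.1. The test was checked on simulated data with planted changes, for LPS against PBS in the day 1 IP of PFC alone. Changes were planted only in genes with many reads, so the check does not cover genes with few reads. Simulated libraries were drawn independently, so it does not cover libraries that share an animal. Alternatives were other pseudocounts, filters and scalings, no sex term, limma-voom on the recovered reads, fits of the compared groups alone, and each library left out. The 10 members, the pathway and marker lists and the rule for named genes were chosen with earlier results of these data known: all members are named, and of the other genes those with a call in the lists, the 3 most alike in pattern (1 of these is not reported here), and markers beside a result. Of the 10 members, 8 had a promoter in the RefSeq table.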

Additional observations from a re-analysis of the deposited data

Results flagged for a closer look

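Among 230 sets of 4 libraries (10 genes in 23 groups), 13 held a library that lay apart, with a gap to its neighbour, as a share of the range of its group, above Dixon's critical value. Chance alone flags about 1 in 20 such sets. Alox5ap lay apart in 4 IP groups of VCX: at 1.4 FPKM in LPS replicate 2 of day 2 (next 3.26), at 0.82 in PBS replicate 1 of day 1 (next 0.265), at 0.682 in PBS replicate 4 of day 2 (next 0.244) and at 0.47 in PBS replicate 2 of day 14 (next 0.6). The whole tissue library labelled PBS, replicate 3, lay apart for Pla2g4a at 2.3 FPKM (next 1.12) and for Ptges at 2.77 FPKM (next 2.02). Ptgs2 stood at 19.9 FPKM in LPS input replicate 1 of PFC at day 14 (next 8.4), a library of 9.71 M reads. Hpgds stood at 2.68 FPKM in PBS input replicate 1 of PFC at day 1, Pla2g5 at 1.08 FPKM in PBS input replicate 2 of PFC at day 2, and Ptgs1 at 5.93 FPKM in PBS input replicate 1 of VCX at day 2. Ptges stood at 1.54 FPKM in LPS input replicate 2 of VCX at day 14, Ptges3 at 33.1 FPKM in LPS IP replicate 1 of VCX at day 14, and Ptgis at 0.149 FPKM in PBS IP replicate 1 of PFC at day 14.

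LPS effects differed between fractions or days, by limma at an adjusted p under 0.05, in 22 cases. Between IP and input at day 1 they differed for Ptgs1 by -1.65 in PFC and -1.517 in VCX, for Alox5ap by 1.289 and 2.144, and for Ptges3 by 0.454 in VCX. At day 2 they differed for Alox5ap by 1.937 in VCX. Between day 2 and day 1 they differed for Ptgs1 in the IP by 1.299 in PFC and 1.208 in VCX, and for Hpgds in the input by 1.204 and 1.073. Between day 14 and day 1 in the IP they differed for Ptgs1 by 1.569 and 1.428, for Ptges by -0.551 and -0.483, and for Alox5ap by -1.864 and -3.221, in PFC and VCX. Between day 14 and day 1 in the input they differed for Ptges by -0.722 and for Hpgds by 0.79 in PFC, for Alox5ap by -0.724 and -1.153, and for Pla2g4a by -0.949 and -1.236. IP and input were sequenced as a different project at each day, so a difference between days and one between projects cannot be told apart.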

How the results depend on the processing

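Of 94 changes called among the members, 20 lost their call under at least 1 alternative setting and 21 without at least 1 library. Of 298 not called, 13 were called under a setting and 19 without a library. Without rescaling, 4 values of IP against input reversed: Ptges3 at -0.033, -0.074 and -0.080 at days 1, 2 and 14, and Pla2g5 at -0.027 at day 2. In whole tissue 0 members were called, 2 with limma-voom and 0 to 5 with a library left out, the 5 without PBS replicate 3. For day 2 or 14 against day 1, 16 members were called, and 10 with the groups of the contrast alone. With a library left out the counts ran from 9 to 12 (LPS in the IP, 11 with all), 11 to 15 (LPS in the input, 13), 27 to 28 (IP against input, 28), 18 to 21 (areas, 20), 0 to 0 (LPS effect between areas, 0), 5 to 7 (between fractions, 6) and 14 to 17 (between days, 16). Without the 3 libraries under 10 M reads, a setting chosen after seeing the data, the Ptges difference between day 14 and day 1 in the input of PFC lost its call at -0.606, which left 15 calls between days, and no other of these counts changed. Low depth limits the day 14 input most. No paired analysis was possible because the numbers in the titles belong to single libraries and are shared by no 2 groups.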

Other observations

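Ptgds in the IP also differed by sex, a comparison made after the values were seen. At day 1 it averaged 4420 scaled FPKM in 8 female libraries and 2390 in 8 male libraries. The log2 difference between females and males was 1.01 ± 0.177 (limma adjusted p = 0.00897), with 1.91% of all genes called. It was 0.41 (adjusted p = 0.509) at day 2 and 0.66 (adjusted p = 0.517) at day 14, and 0.37 (adjusted p = 0.257) in the input at day 1. Meningeal fibroblast markers stood higher in female than in male IP libraries at day 1 as well, Slc6a13 at 24.1 and 13.4 scaled FPKM, Igf2 at 13 and 6.33, and Dcn at 14.7 and 7.2. Their part in the Ptgds difference was not tested.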
